A study of Mus musculus with 6 samples.

Results

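Transcripts of 10 mouse genes were followed in sorted MC38 colon carcinoma cells. They were the myeloid growth factors Csf1, Csf2, Csf3, Il34 and Kitl, and Mif, the macrophage migration inhibitory factor. The others were the interleukin 6 family cytokines Il6, Lif and Il11, and Il6st, the receptor subunit that this family shares. The genes were taken by name, as factors that tumour cells can make and that act on myeloid cells, together with every probe annotated to them. These were 19 of 45281 probes, and the 10 genes stood among 19057 with a probe on the array. MC38 is a mouse colon carcinoma cell line. It was injected into the spleen of CD11bDTR transgenic mice, in which the promoter of the myeloid integrin gene CD11b drives a receptor for diphtheria toxin (DT). The mice of both groups carried the transgene and the tumour, and the tumour cells themselves came from the injected line. The 3 PBS samples came from mice given PBS and the 3 DT samples from mice given DT to deplete myeloid cells, each by intraperitoneal injection on days 7 and 9. Livers were taken on day 10 and the MC38 cells were sorted from them. The age of the mice and the gate of the sort are not stated. Since nothing says that each sample is its own mouse, the p-values cover the variation among 3 samples a group, part of which may be technical only.

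CSF1 and IL34 both bind the receptor CSF1R and keep macrophages and their precursors alive, CSF2 and CSF3 drive the production and survival of granulocytes and macrophages, and KITL acts on blood progenitors and mast cells through KIT. MIF is a secreted protein that binds CD74 on myeloid cells. IL6, LIF and IL11 each use a receptor of their own and pass the signal through gp130, the product of Il6st, to JAK kinases and STAT3, and SOCS3 is a feedback inhibitor of this pathway. Tumours that release these factors are known to recruit myeloid cells and to alter their maturation. The comparison of DT with PBS asks how the tumour cells' transcripts differ once the toxin has been given.

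The mean signal of an array lay between 311.3 and 503.1 and the median between 135.0 and 153.8, and between 36.7% and 40.6% of probes lay above background, here a detection p under 0.05. PBS arrays correlated with each other at 0.979 to 0.989 over genes, DT arrays at 0.986 to 0.987, and arrays of opposite groups at 0.961 to 0.986. In limma, 103 of 9483 genes (1.09%) had an adjusted p under 0.05, with 31 higher (0.327%) and 72 lower (0.759%) in DT, and the median difference over all genes was 0.011 on the log2 scale. Of 10 epithelial and carcinoma markers, Epcam, Krt18, Krt19, Krt20, Vil1 and Cldn4 were above background on no array, Cdh1 and Krt7 on 3 each and Krt8 on all 6. Vim was also above it on all 6, at 12.1 ± 0.17 in PBS and 12.3 ± 0.093 in DT (normalized log2, SD, n = 3). The fibroblast markers Dcn, Col3a1 and Pdgfra were also above background on all 6 arrays. How much of the sorted RNA came from cells other than MC38 was not measured.

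All of the 10 genes but Csf3 were detected. Csf3, which encodes the granulocyte factor G-CSF, had 2 probes, and neither lay above background on any of the 6 arrays, with detection p-values from 0.0694 to 0.655 and signals from 126.3 to 158.4. No difference can be given for it. The other 9 genes each had at least 1 probe above background on all 6 arrays. In total 11 of the 19 probes passed the filter of a detection p under 0.05 on at least 3 arrays, and these 11 were above background on all 6. The 8 that did not pass were both Csf3 probes, 3 of the 5 for Lif, 2 of the 3 for Kitl and 1 of the 2 for Il6st, and none of them lay above background on any array. For Lif, the 2 detected probes are those annotated to the transcript record NM_001039537, and the 3 undetected ones are annotated to NM_008501. For each gene the brightest probe that passed was used.

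**Figure D1:**
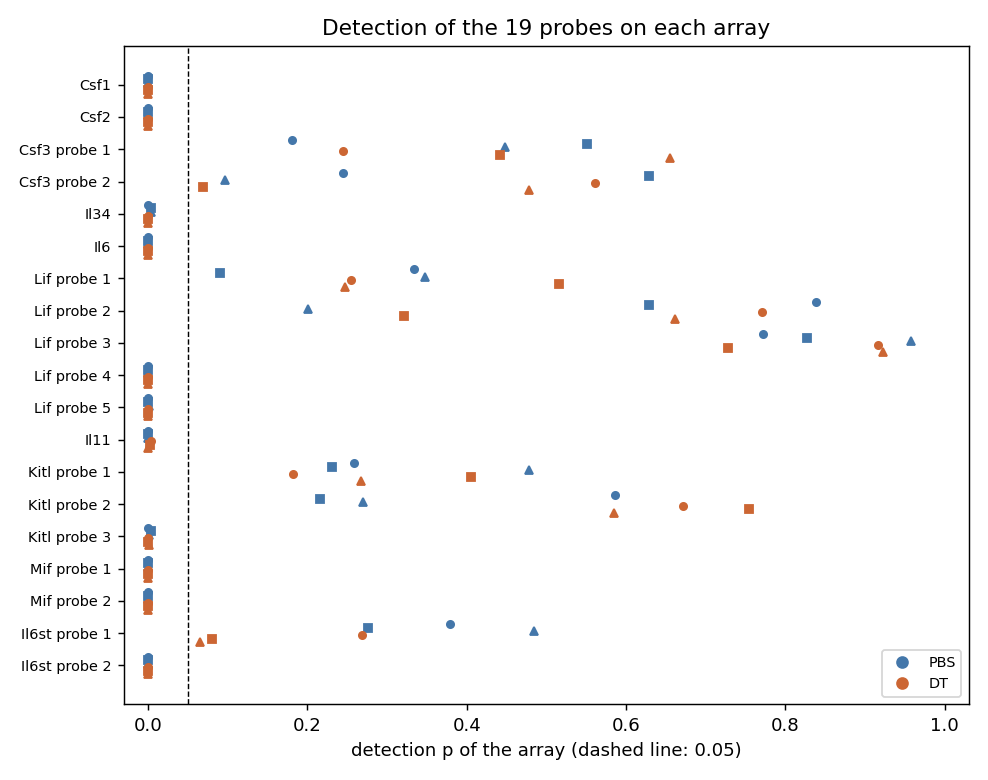
Detection p of each of the 19 probes (rows) on each of the 6 arrays, blue for PBS and orange for DT, with circles, squares and triangles for replicates 1, 2 and 3. Probes lie either at the left edge on all 6 arrays or above 0.05 on all 6, and both Csf3 probes are of the second kind.

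None of the 9 measured genes passed the test between DT and PBS. Adjusted p-values in limma ran from 0.128 for Mif to 0.964 for Csf1, while 1.09% of all genes were called, 0.759% lower and 0.327% higher. An unadjusted p under 0.05 was reached by 2 of the 9 genes (22.2%), Mif and Il11, against 23.9% of all genes tested. In 1 gene, Mif, the DT values did not overlap the PBS values, against 28.9% of all genes. By sign, 4 genes were higher and 5 lower in DT, where 48.7% of all genes were lower, with a median difference of −0.017 on the log2 scale beside 0.011 over all genes. These shares were close to those of the array as a whole or below them.

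Mif encodes macrophage migration inhibitory factor, and its brighter probe gave normalized log2 values of 14.28, 14.21 and 14.50 in PBS replicates 1 to 3 and of 13.86, 13.59 and 14.06 in DT replicates 1 to 3. Every DT array was below every PBS array. The mean was 14.3 ± 0.15 in PBS and 13.8 ± 0.24 in DT (SD, n = 3), a difference of −0.49 (SE 0.17; limma, adjusted p = 0.128) or 1.41-fold lower, with a 95% interval from −0.87 to −0.11. The second Mif probe gave 10.80, 11.23 and 10.90 in PBS and 10.77, 10.59 and 10.95 in DT. Here DT replicate 3 lay above PBS replicates 1 and 3, and the difference was smaller, at −0.21 (SE 0.18; adjusted p = 0.503 in a limma fit of every probe). In the authors' deposited normalized values the brighter probe did not separate the groups either, with 13.96 in PBS replicate 1 and 14.04 in DT replicate 3. Before normalization that probe gave signals between 12744 and 24878, on arrays whose brightest probe gave 29170 to 32987, and whether the scanner's response was linear there was not tested. The difference passed with an intensity trend in the variance model (adjusted p = 0.0347) and with array weights (−0.59, adjusted p = 0.0416). In limma the adjusted p ran from 0.0347 to 0.950 over all alternatives, the latter after scaling to a common median.

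Il11 encodes a gp130 cytokine that is made mainly by stromal and tumour cells. Its single probe gave 6.80, 6.79 and 7.52 in PBS and 5.79, 5.70 and 7.00 in DT (normalized log2). DT replicates 1 and 2 lay more than 1 log2 unit below the lowest PBS array, while DT replicate 3 lay among the PBS values, so that the groups overlapped. The mean was 7.04 ± 0.42 in PBS and 6.16 ± 0.73 in DT (SD, n = 3), and the difference, the largest among the 9 genes, was −0.88 (SE 0.33; limma, adjusted p = 0.154), or 1.83-fold lower, with a 95% interval from −1.62 to −0.13. Without DT replicate 3 it was −1.29 (adjusted p = 0.0313), and it also passed with array weights (−1.15, adjusted p = 0.0435). Over all alternatives the adjusted p ran from 0.0313 to 0.807, the latter after scaling to a common median. The signals of this probe, from 159.4 to 316.6, stood on arrays with median signals of 135.0 to 153.8, and without background correction the difference was −0.37.

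Csf2 encodes GM-CSF, which acts on granulocytes, macrophages and dendritic cells. It gave 8.03, 8.65 and 9.07 in PBS and 7.80, 8.08 and 8.24 in DT. PBS replicate 1 lay among the DT values and the other 2 PBS arrays above all of them. The mean was 8.58 ± 0.52 in PBS and 8.04 ± 0.22 in DT (SD, n = 3), a difference of −0.55 (SE 0.25; limma, adjusted p = 0.213) or 1.46-fold lower, with a 95% interval from −1.10 to 0.0058. Leaving out PBS replicate 3, the highest array, gave −0.30 (limma, adjusted p = 0.516), and leaving out PBS replicate 1 gave −0.83 (adjusted p = 0.0899).

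**Figure D2:**
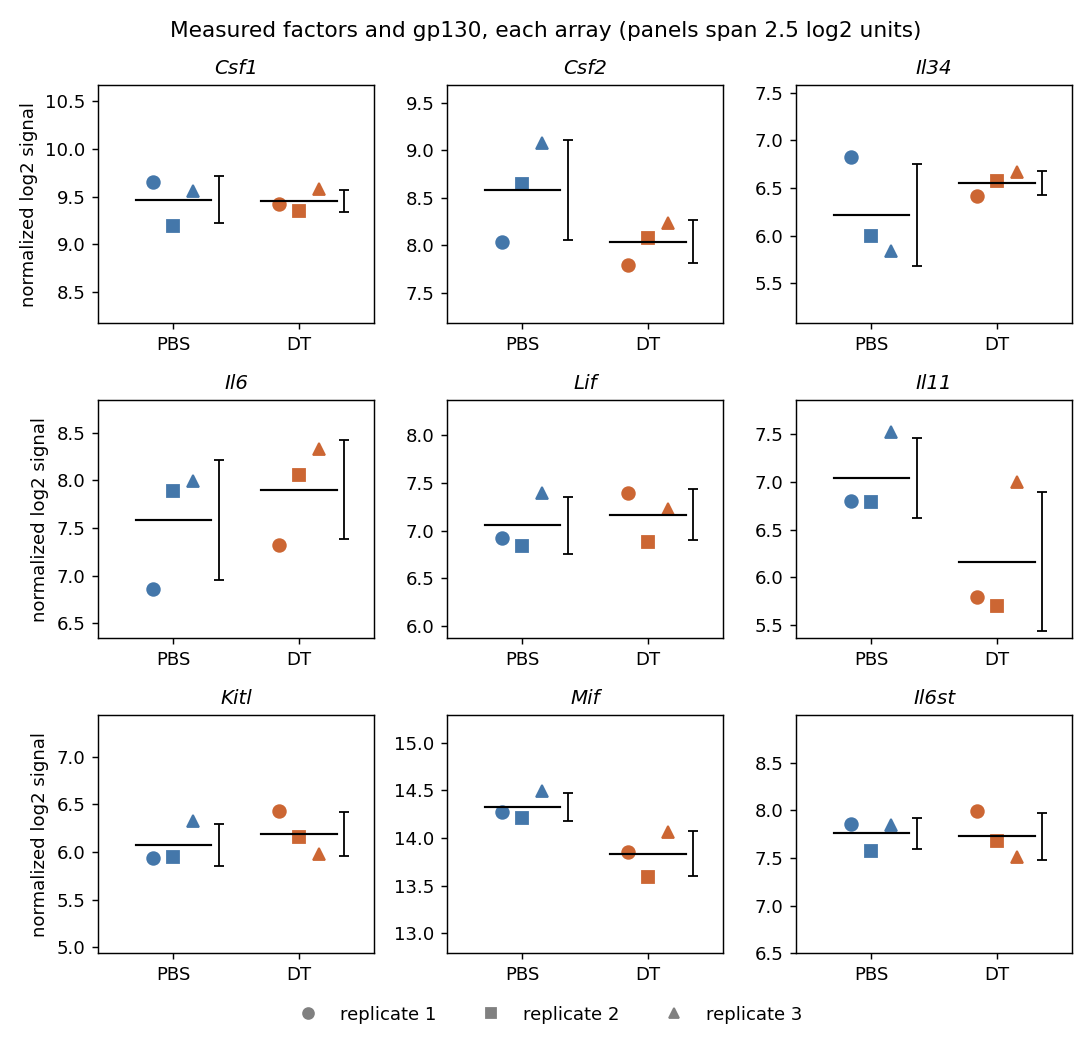
Normalized log2 signal of the 9 measured genes on each array, in blue for PBS and in orange for DT, with circles, squares and triangles for replicates 1, 2 and 3, a line at the mean and a bar of 1 SD to its right. Every panel spans the same range, and only in the Mif panel do all 3 DT points lie below all 3 PBS points.

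The RefSeq promoter windows of these genes (build GRCm38.p6, 250 bases before and 50 after the annotated start) are shown for Mif, Il11 and Csf2, the 3 genes with the smallest p, and for Il6, whose window held matches to both inducible motifs that were searched. RefSeq tables held a window for 8 of the 10 genes, and Il11 had 2. Capitals mark matches, on either strand, to the TATA motif TATAAA, the GC box GGGCGG and the AP-1 motif TGANTCA, where N is any base, and the NF-kB motif.
Mif, chr10:75860228-75860527, minus strand: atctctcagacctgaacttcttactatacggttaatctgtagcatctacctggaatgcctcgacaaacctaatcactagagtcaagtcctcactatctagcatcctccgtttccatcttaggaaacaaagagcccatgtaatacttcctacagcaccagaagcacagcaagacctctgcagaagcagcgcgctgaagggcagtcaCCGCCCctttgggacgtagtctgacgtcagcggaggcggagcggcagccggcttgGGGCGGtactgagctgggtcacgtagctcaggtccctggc
Il11, chr7:4782808-4783107, minus strand: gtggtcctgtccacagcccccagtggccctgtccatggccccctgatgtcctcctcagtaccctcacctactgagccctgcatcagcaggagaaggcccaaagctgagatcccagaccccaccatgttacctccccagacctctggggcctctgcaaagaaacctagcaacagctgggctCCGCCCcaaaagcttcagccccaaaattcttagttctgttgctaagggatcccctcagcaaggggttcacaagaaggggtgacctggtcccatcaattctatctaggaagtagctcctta
Il11, chr7:4778092-4778391, minus strand: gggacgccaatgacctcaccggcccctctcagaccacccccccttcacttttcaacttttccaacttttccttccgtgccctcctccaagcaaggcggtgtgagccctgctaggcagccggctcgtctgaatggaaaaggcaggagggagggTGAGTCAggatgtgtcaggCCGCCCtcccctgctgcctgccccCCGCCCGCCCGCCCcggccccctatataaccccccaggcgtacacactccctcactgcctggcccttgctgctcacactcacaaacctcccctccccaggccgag
Csf2, chr11:54249850-54250149, minus strand: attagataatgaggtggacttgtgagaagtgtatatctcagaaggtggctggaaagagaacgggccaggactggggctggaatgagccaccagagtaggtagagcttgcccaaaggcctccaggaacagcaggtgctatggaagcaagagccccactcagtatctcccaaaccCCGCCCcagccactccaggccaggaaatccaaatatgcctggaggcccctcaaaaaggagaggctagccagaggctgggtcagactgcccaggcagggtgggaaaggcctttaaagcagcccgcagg
Il6, chr5:30012864-30013163, plus strand: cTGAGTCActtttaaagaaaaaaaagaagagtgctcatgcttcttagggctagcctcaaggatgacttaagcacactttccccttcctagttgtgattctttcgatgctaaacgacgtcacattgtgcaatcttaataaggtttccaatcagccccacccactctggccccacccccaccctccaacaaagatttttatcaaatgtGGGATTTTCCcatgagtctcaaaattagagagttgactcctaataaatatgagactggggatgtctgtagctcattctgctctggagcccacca

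The Mif window held 2 GC boxes and no match to the other 3 motifs. In Il11, the window farther upstream held 1 GC box, and the window nearer to the end of the gene held 4 GC boxes, of which 3 overlap, and 1 AP-1 match 98 bases upstream of the start. The Csf2 window held 1 GC box, and that of Il6 held an AP-1 match at its far upstream edge and an NF-kB match 44 bases upstream. Il6 was picked for display by these matches. Among the windows not shown, Csf1 and Kitl also held an NF-kB match, Lif an AP-1 match and Kitl a TATA match. Csf1, Kitl and Il6st held GC boxes. Over all 32851 windows of this length, 35.7% held a GC box, 13.6% a TATA match, 7.81% an AP-1 match and 5.56% an NF-kB match. The matches describe these letters only, and a window without a match does not show that the factor is not bound.

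Csf1 and Il34 are the paired ligands of the macrophage receptor CSF1R. Csf1 gave 9.65, 9.19 and 9.56 in PBS and 9.42, 9.35 and 9.58 in DT, and all 3 DT values lay within the PBS range. The difference was −0.017 (SE 0.17; limma, adjusted p = 0.964), with a 95% interval from −0.39 to 0.36, which spans 1.31-fold lower to 1.28-fold higher. Il34 gave 6.83, 5.99 and 5.83 in PBS and 6.42, 6.58 and 6.67 in DT. The DT values lay above PBS replicates 2 and 3 and below PBS replicate 1. The difference was 0.33 (SE 0.24; adjusted p = 0.425), with an interval from −0.20 to 0.87. Without PBS replicate 1 it was 0.63 (adjusted p = 0.113).

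Kitl encodes stem cell factor. It gave 5.94, 5.95 and 6.32 in PBS and 6.44, 6.16 and 5.98 in DT, and PBS replicate 3 lay among the DT values, so that the groups overlapped. The difference was 0.12 (SE 0.18; limma, adjusted p = 0.718), with an interval from −0.28 to 0.52. Of Csf1, Il34 and Kitl, the interval of Il34 was the widest and spans 1.15-fold lower to 1.83-fold higher.

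Il6, the founding cytokine of its family, varied more within the groups than between them. It gave 6.86, 7.89 and 7.99 in PBS and 7.32, 8.06 and 8.32 in DT, so that replicate 1 was low in each group. The mean was 7.58 ± 0.63 in PBS and 7.90 ± 0.52 in DT (SD, n = 3), and the difference was 0.32 (SE 0.33; limma, adjusted p = 0.581), with an interval from −0.40 to 1.04. Without PBS replicate 1 it was −0.039. Lif, a gp130 cytokine that signals through LIFR, gave 6.93, 6.84 and 7.40 in PBS and 7.40, 6.88 and 7.22 in DT. Its groups overlapped, and the difference was 0.11 (SE 0.20; adjusted p = 0.766), with an interval from −0.33 to 0.56. The second detected Lif probe gave 6.12, 7.06 and 6.39 in PBS and 6.62, 6.09 and 6.91 in DT, a difference of 0.020 (SE 0.27; adjusted p = 0.973 in the limma fit of every probe).

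Il6st, which encodes gp130 itself, gave 7.86, 7.57 and 7.85 in PBS and 7.99, 7.68 and 7.51 in DT. The difference was −0.032 (SE 0.17; limma, adjusted p = 0.931), with an interval from −0.42 to 0.35, or 1.34-fold lower to 1.28-fold higher. A second Il6st probe was above background on no array.

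**Figure D3:**
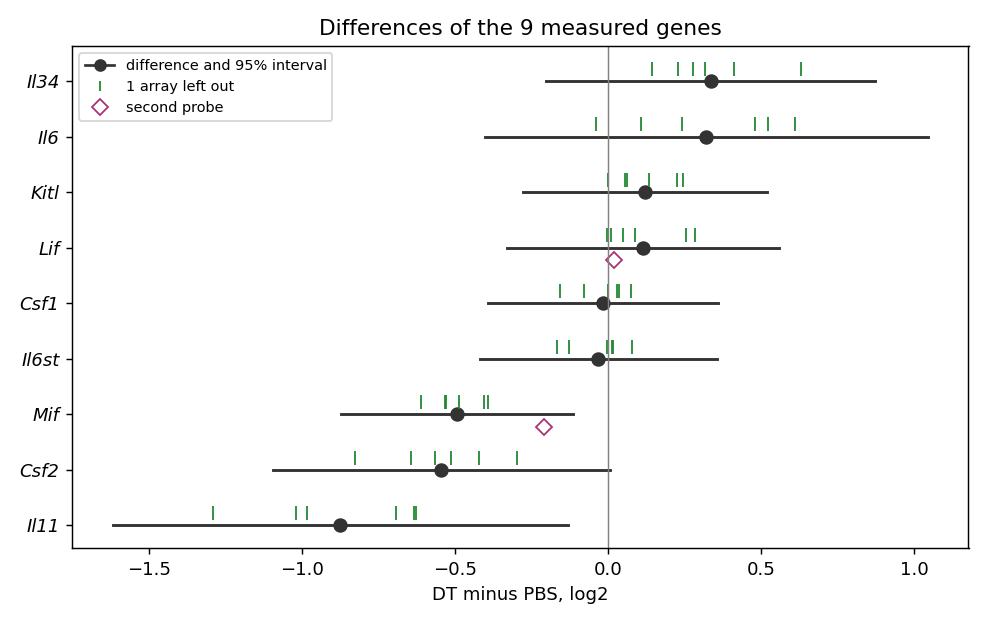
Difference between DT and PBS on the log2 scale for the 9 measured genes, with the 95% interval of the limma fit (line), the value with each array left out in turn (green ticks) and the second probe where it passed the filter (open diamonds). The intervals of Mif and Il11 lie below 0 and those of the other 7 genes include it, and none of the 9 passed after adjustment over all genes.

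The 9 genes did not vary as one group. PBS replicate 3 was the highest PBS array for 6 of them, Csf2, Il6, Lif, Il11, Kitl and Mif, and DT replicate 3 the highest DT array for 6, Csf1, Csf2, Il34, Il6, Il11 and Mif. Over the 6 arrays, which include the group difference, Mif and Il11 had a Pearson correlation of 0.92, Csf2 and Il11 of 0.78, and Csf2 and Il34 of −0.82. These describe 6 arrays that share a normalization. Among all genes tested, the 3 whose values over the 6 arrays followed Mif most closely were Esyt1, Pop5 and Otud3 (Pearson correlations of 0.998, 0.998 and 0.997). Those for Il11 were Uhrf1, Rtel1 and Mss51 (0.996, 0.991 and 0.989), and those for Csf2 were Tcaim, Galnt12 and Gfod1 (0.987, 0.982 and 0.978). None of these 9 genes passed the test between the groups. Their correlations are the highest of a search over 9483 genes on 6 arrays, so their size alone does not show shared regulation.

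Of 17 receptor genes for these ligands, 15 had a probe and 7 were measured, none of which passed the test, with 1 higher and 6 lower in DT and a median of −0.50. Csf1r, the receptor of CSF1 and IL34, gave −0.70 (SE 0.30; limma, adjusted p = 0.188), and Csf3r, the G-CSF receptor, −0.50 (SE 0.16; adjusted p = 0.113). The genes of this list with the smallest p were Sdc1, a syndecan that can bind IL34, at 1.23 (SE 0.27), and Cd74, the MIF receptor and MHC class II invariant chain, at −1.48 (SE 0.37), with adjusted p-values of 0.0568 and 0.0647. Cd74 gave 9.45 ± 0.87 in PBS and 7.97 ± 0.36 in DT (SD, n = 3). Sdc1 was above background on only 2 of the 3 PBS arrays, and its difference was 0.45 without background correction. Csf3r was above background on only 2 of the 3 DT arrays. Il6ra was measured, at −0.18 (SE 0.18), while Kit and the GM-CSF receptor chains Csf2ra, Csf2rb and Csf2rb2 were above background on no array. Csf1r, Csf3r and Cd74 also stand on the macrophage, neutrophil and MHC class II marker lists, respectively. With alternative settings Sdc1 passed in 7 of 18 fits and Cd74 in 5 of 18 (limma, adjusted p from 0.0151 to 0.248 and from 0.0106 to 0.271), both in the deposited normalized values among others.

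Macrophage and monocyte markers were measured for 14 of 20 genes, 13 of them lower in DT, with a median of −0.82 and no gene past the threshold, and Clec4f, Ccr2 and Cybb were above background on no array. Their mean per array was from 7.02 to 8.13 in PBS and from 6.87 to 7.07 in DT, and PBS replicate 3 stood at the level of the DT arrays. Of 10 genes of dendritic cells and MHC class II, 6 were measured, 2 fell (H2-Ab1 and H2-Eb1), the median was −1.38, and the mean was from 7.40 to 8.32 in PBS and from 6.65 to 7.08 in DT. Itgax, Flt3, Xcr1 and Ciita were above background on no array. Neutrophil markers were measured for 9 of 16 genes, 5 of them higher and 4 lower in DT, with Il1b and Csf3r among the lower ones. S100a8, Lcn2 and Retnlg were called higher, but Lcn2, Retnlg and Ltf were above background on no PBS array and passed the filter through the 3 DT arrays alone. The mean of the 9 genes was from 6.13 to 6.71 in PBS and from 6.91 to 7.39 in DT. This mean and the count of 5 higher genes take in Lcn2, Retnlg and Ltf, so the difference in each is partly set by the filter. Cxcr2 and Mmp8 were above background on no array. Stellate cell and fibroblast markers, of cells that make Il6, Lif, Il11 and Csf1, gave a median of 0.38 over 10 of 14 genes, with 1 that rose (Dpt), and the mean was from 8.73 to 9.29 in PBS and from 9.50 to 9.58 in DT. Lrat, Des and Reln were above background on no array. The part of these cells in the values of the 10 genes was not tested, and in bulk samples fewer cells of a type and less RNA per cell cannot be told apart. Mast cell markers, Kit among them, were above background on no array for any of the 7 genes. Of the T and NK cell, endothelial and hepatocyte markers 2, 2 and 4 genes were measured, and none passed the test. Without PBS replicate 3, whose macrophage markers stood at the DT level, the count of called genes among the 9 was 0. It was also 0 with all arrays, so the count says little. In this fit Mif, Il11 and Csf2 gave −0.41, −0.64 and −0.30, beside −0.49, −0.88 and −0.55 with all arrays. An unadjusted p under 0.05 in limma was reached by 0 of the 9, beside 1642 of 9483 genes.

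**Figure D4:**
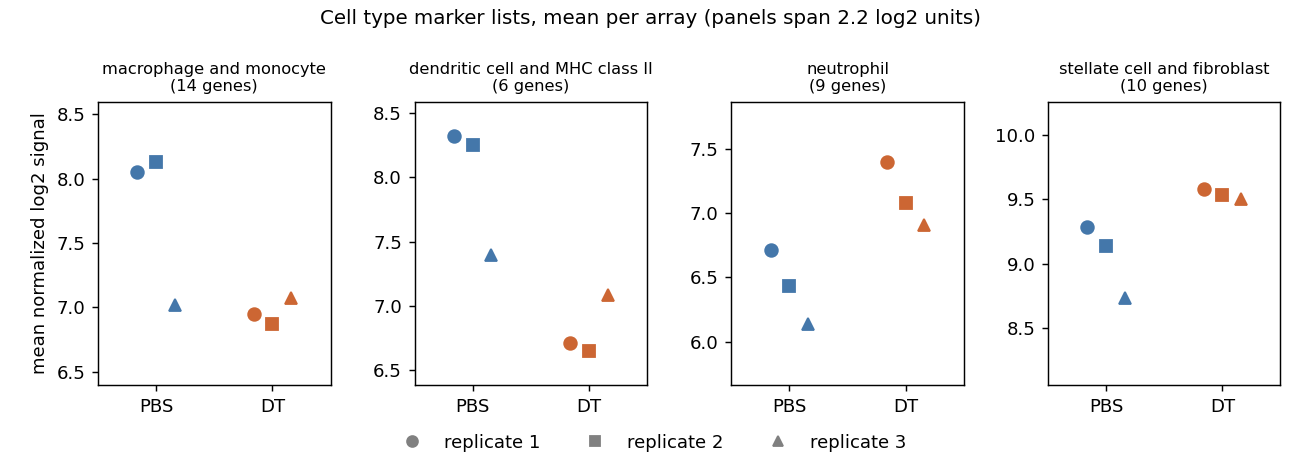
Mean normalized log2 signal of the measured genes of 4 cell type marker lists on each array, blue for PBS and orange for DT, with circles, squares and triangles for replicates 1, 2 and 3. The macrophage mean of PBS replicate 3 lies at 7.02, within the DT range of 6.87 to 7.07. The fibroblast means of all DT arrays lie above those of all PBS arrays. The neutrophil mean takes in Lcn2, Retnlg and Ltf, which passed the filter through the DT arrays alone, so its separation is partly set by the filter.

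Of the genes listed as downstream of gp130, 1 fell, and its link to gp130 in these cells was not tested. Socs2, an inhibitor of cytokine signalling that STAT5 induces, went from 8.93 ± 0.14 in PBS to 7.66 ± 0.18 in DT (SD, n = 3), and so fell by 1.27 on the log2 scale, with an SE of 0.16 and an adjusted p of 0.0193 in limma. The call was lost without PBS replicate 2 (adjusted p = 0.0620), DT replicate 1 (0.127) or DT replicate 2 (0.112), and the difference stayed between −1.36 and −1.17 over the arrays left out. It was the 1 called gene among 17 measured of 20 JAK, STAT and adaptor genes, which had a median of 0.033, with 9 genes higher and 8 lower. Stat3 gave −0.67 (SE 0.20; adjusted p = 0.102), Cish, another target of STAT5, −0.60 (SE 0.20; adjusted p = 0.124), and Socs3 0.033 (SE 0.17; adjusted p = 0.928). Of 22 STAT3 target genes, 18 were measured, with a median of 0.023, and 1 was called. This was Lcn2, a secreted lipocalin that is also on the neutrophil list. It was above background on no PBS array and on all 3 DT arrays, through which alone it passed the filter. It was at least 2.77-fold higher in DT, a bound that was not itself tested. The adjusted p of 0.0193 in limma belongs to the fitted difference, which uses PBS values below background. That call was lost without PBS replicate 2 (adjusted p = 0.0631) or DT replicate 2 (0.116). By sign, 11 of the 18 targets were higher and 7 lower in DT. An unadjusted p under 0.05 in limma was reached by 4 higher and 2 lower ones of these 18, against 23.9% of all genes tested. Both counts of higher targets take in Lcn2, so they are partly set by the filter. The 4 higher ones were Lcn2, Saa3 at 0.65, Bcl6 at 0.53 and Myc at 0.48. Saa3 and Myc were above background on 2 and 1 of the PBS arrays. The lower ones were Ccnd1 at −0.52 and Icam1 at −0.46. The targets Junb, Mcl1 and Cebpb gave 0.013, 0.0082 and −0.17.

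Other cytokines of the 2 families gave few measured genes. Of 14 other interleukin 6 family genes, 13 had a probe, 8 of these were above background on no array, and the 4 measured ones did not pass, with 0.37 (SE 0.19) for Ctf1, cardiotrophin 1, 0.30 (SE 0.16) for the receptor Il27ra, 0.11 (SE 0.17) for Osmr and −0.56 (SE 0.35) for the cytokine Osm. Their adjusted p-values in limma ran from 0.264 to 0.738. Of 9 other growth factors and related genes, 4 were measured and none passed. Il15, which supports NK and T cells, gave 0.47 (SE 0.21; adjusted p = 0.207), Il7 0.29 (SE 0.15; adjusted p = 0.251), Tslp −0.26 (SE 0.26), and Ddt, the homologue of Mif, 0.25 (SE 0.17), of the opposite sign to Mif and with an adjusted p = 0.412.

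Genes that set the level of cytokine transcripts were measured for 17 of 22, and none passed, with a median of 0.070, 9 higher and 8 lower. Il1b, an inducer of Il6 and Csf2 that macrophages and neutrophils make, gave −1.52 (SE 0.34; limma, adjusted p = 0.0568). Zfp36, which encodes tristetraprolin, a protein that binds AU-rich elements of cytokine mRNAs and speeds their decay, gave 11.54 ± 0.095 in PBS and 12.01 ± 0.035 in DT (SD, n = 3), a difference of 0.47 (SE 0.14; adjusted p = 0.0997). Every DT array was above every PBS array for Zfp36 and below for Il1b. With alternative settings Il1b passed in 8 of 18 fits and Zfp36 in 4 of 18 (limma, adjusted p from 0.00913 to 0.257 and from 0.0242 to 0.858). The NF-kB subunits Rela and Relb gave −0.17 (SE 0.15) and −0.55 (SE 0.21), with adjusted p-values of 0.518 and 0.158.

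**Figure D5:**
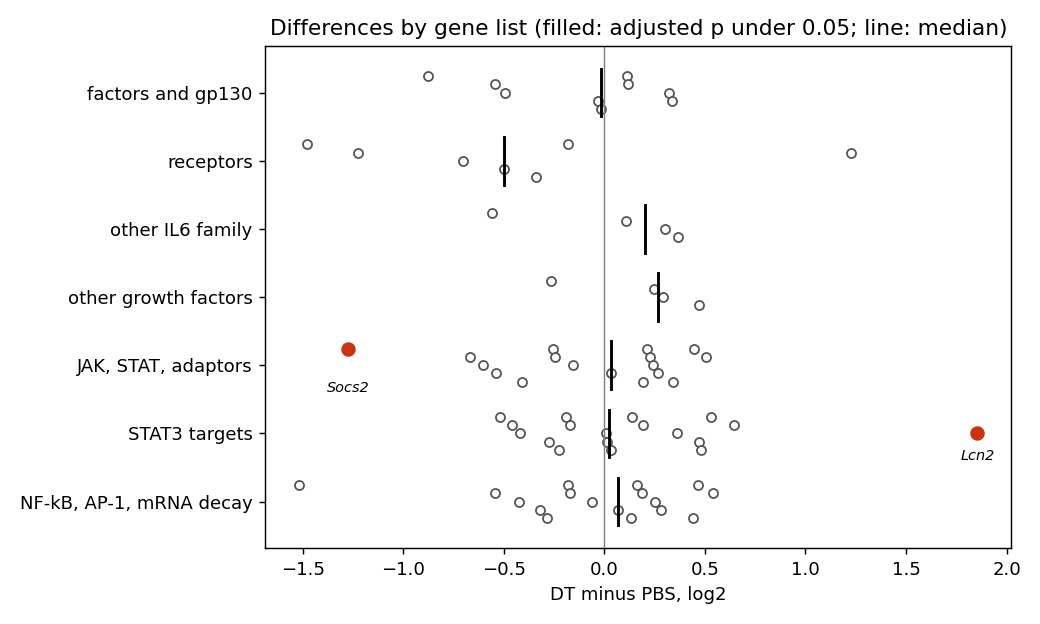
Difference between DT and PBS on the log2 scale for the 9 measured genes (top row) and for every measured gene of 6 lists of related genes, with a line at each median and filled points for an adjusted p under 0.05. The filled points are Socs2 and Lcn2, and the point for Lcn2 is the fitted difference, not the bound.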

How the data were processed

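RNA of 3 PBS and 3 DT samples was measured in a single colour on Illumina mouse bead arrays after oligo-dT amplification and biotin labelling, per the labels' protocols. For every probe and array, the deposited table holds an intensity, the average over beads on a linear scale with no normalization, and a detection p-value, per the file headers. The authors also deposited normalized log2 values, used here as an alternative only. The sources used here do not say how those were made. Gene names came from the platform annotation, updated through RefSeq. Of 45281 probes, 34885 had 1 gene, 18 several and 10378 none named here.

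Signals were corrected and quantile normalized with neqc in limma 3.58.1 (R 4.3.3) with an offset of 16, which shrinks differences of dim genes. A probe was kept where it named 1 gene and its detection p was under 0.05 on 3 or more arrays, and the brightest per gene was tested with lmFit and eBayes, two-sided, with Benjamini-Hochberg adjustment over 9483 genes and a threshold of 0.05. Differences are DT minus PBS. A gene above background on no array of a group has a bound there, taken against the higher of its own value and the lowest value above background on each array. For a single value the smallest p of an exact permutation test would be 0.1, so none was used. Named from each list were the genes past the threshold or the 2 with the smallest p, and of the 3 genes with the smallest p the 3 most correlated genes. The other genes were added as members of a pathway after their values were seen. The genes and lists were chosen with earlier results of these data known. The fit was run on simulated data as a check of the code only. That noise was independent between genes and arrays, and no differences between arrays or in cell content were simulated. Figures were drawn with matplotlib 3.10.9. The number of arrays limits the precision.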

Additional observations from a re-analysis of the deposited data

How the results depend on the processing

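None of the 9 measured genes passed under 16 of 19 alternatives. The exceptions were an intensity trend, with 1 call (Mif), array weights, with 2 (Mif and Il11), and the fit without DT replicate 3, with 1 (Il11), and over the arrays left out the count ran from 0 to 1. Mif, Il11, Csf2 and Il34 kept their direction throughout. Differences near 0 changed sign. For Csf1 and Il6st the differences were 0.19 and 0.14 after scaling to a common median, which moved the median of all genes to 0.17, and 0.045 and 0.0036 in the deposited normalized values. Csf1 was above 0 when PBS replicate 1, PBS replicate 3 or DT replicate 2 was left out, and Il6st when PBS replicate 1, PBS replicate 3 or DT replicate 3 was. Over the arrays left out the lowest and highest values were −0.16 and 0.075 for Csf1, −0.17 and 0.076 for Il6st, −0.039 and 0.61 for Il6, −0.0028 and 0.28 for Lif and −0.00060 and 0.25 for Kitl. Lif was −0.040 with array weights. Lif and Kitl were below 0 without DT replicate 1, and Il6 without PBS replicate 1. The call of Socs2 was also lost with median scaling (limma, adjusted p = 0.373), and those of Socs2 and Lcn2 without a filter on dim probes (0.0794 and 0.113) and in the unmoderated model (0.223 for both). With median scaling each gene followed through the alternatives had the same SE of 0.38, so that fit does not reflect a gene's own spread. It gave the upper ends of the adjusted p ranges of Mif, Il11 and Zfp36.

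The count over all genes, 103, was 654 with an offset of 50, 558 without background correction, 27 with median scaling (20 higher and 7 lower), 313 in the deposited values (151 higher and 162 lower), 264 with a detection p under 0.01, 772 with an intensity trend, 1059 with array weights and 755 at an adjusted p of 0.1. It was 0 without a filter and 0 in the unmoderated model, where 2942 and 1781 genes had an unadjusted p under 0.05. It ran from 0 to 389 over the arrays left out, leaving out DT replicate 2 and DT replicate 3 respectively, and was 3, 4 and 63 when PBS replicate 2, DT replicate 1 and PBS replicate 1 were left out. The causes were not tested. With a replicate block the count was 30, and 0 of the 9 genes passed. The labels do not say whether equal replicate numbers pair the samples. Over genes, the deviations of same-numbered samples from their group means correlated at −0.10, −0.18 and 0.030. With 3 samples a group these values cannot decide whether samples were paired.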
